A study of Rattus norvegicus with 23 samples.

Results

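10 rat genes of the YAP/TAZ pathway were followed, out of 30452 genes in the count table. They are the coactivators Yap1 and Wwtr1 (which encodes TAZ), the matricellular genes Ccn1, Ccn2, Ccn4 and Ccn5, and the target genes Ankrd1, Amotl2, Ajuba and Lats2. They were found by their symbols and had been chosen by their measured levels by cell line, pH and sample group in these same samples, so their values are a description and carry no test. All 10 passed the filter on low counts, which left 14777 genes for testing. YAP and TAZ are coactivators without a DNA-binding domain of their own, which enter the nucleus and act through the TEAD transcription factors. In the Hippo cascade MST kinases activate the LATS kinases, which phosphorylate YAP and TAZ and keep them in the cytoplasm. In kidney, YAP/TAZ activity and the CCN protein encoded by Ccn2 are known from work on injury and fibrosis.

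The study asked how an acidic environment changes the transcriptome of cells that are not tumour cells. NRK-52E cells (labelled NRKE, epithelial) and NRK-49F cells (labelled NRKF, fibroblast) are established lines from rat kidney and were grown in monoculture in DMEM. Both were held for 24 h in medium lacking serum and then for 48 h at pH 7.4, the control, or at pH 6.0, set with HCl. Poly(A) RNA was sequenced from n = 6 samples of NRK-52E cells at each pH, n = 6 of NRK-49F cells at pH 7.4 and n = 5 at pH 6.0. The labels also place the NRK-52E samples in sample groups 1 and 3 and the NRK-49F samples in sample groups 4 and 6, without saying what a sample group is. Total counts per sample ranged from 16412564 to 34250535 (median 19830621). Levels are given as FPM, counts per 1000000 of the scaled library size, as mean ± SD over samples, and changes as log2 fold changes at pH 6.0 against pH 7.4 ± SE. Nothing in the labels says that samples of a condition came from separate cultures, so p-values measure the spread between these samples, which may be technical.

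The labelled cell types were checked against 12 epithelial and 12 fibroblast marker genes. Of the epithelial markers, 10 were in the table, while Krt19 and Ocln were not found by symbol. In NRK-52E cells at pH 7.4, 7 of these 10 had at most 3 counts in every sample, and Cldn4 and Esrp1 had 0 in all. The adhesion gene Cdh1 averaged 0.160 ± 0.0977 FPM there, Epcam 0.00758 ± 0.0186 FPM and Krt18 0.0185 ± 0.0287 FPM. Krt7 averaged 21.8 ± 6.04 FPM in NRK-52E and 1.42 ± 0.720 FPM in NRK-49F cells, and Krt8, the most abundant epithelial marker, 499 ± 76.4 FPM and 839 ± 193 FPM. Of the fibroblast markers, Dcn and Thy1 were at 0 in all NRK-52E samples, but in NRK-49F at pH 7.4 Thy1 was at 0 in all samples too and Dcn averaged 4.00 ± 1.46 FPM. In NRK-52E Col3a1 averaged 6149 ± 1378 FPM, Pdgfrb 41.4 ± 2.54 FPM and Postn 65.8 ± 10.9 FPM. The other 7 fibroblast markers were far lower in NRK-52E than in NRK-49F at pH 7.4, with mean levels of 58.1 and 5877 FPM for Col1a1, 13.5 and 4476 FPM for Col1a2, 1.83 and 306 FPM for Pdgfra and 1.20 and 272 FPM for Vcam1. Lum averaged 0.546 and 99.2 FPM, Twist1 0.732 and 77.4 FPM and Col6a3 0.132 and 30.4 FPM. NRK-52E cells thus lacked most defining epithelial markers and were low in most fibroblast markers, though not in Col3a1. Both lines are called by their names below. In bulk RNA, fewer cells of a type and less RNA per cell cannot be told apart.

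The coactivator genes were near the same level at both pH values. Yap1 (ENSRNOG00000005933, chromosome 8) measured 127, 156 and 167 FPM as the lowest, median and highest NRK-52E samples at pH 7.4 and 130, 135 and 144 FPM at pH 6.0. In NRK-49F the values were 151, 163 and 177 FPM at pH 7.4, and 119, 158, 151, 144 and 169 FPM in the samples at pH 6.0. The ranges overlapped between both pH values in each line, and the lowest value of all was a NRK-49F sample at pH 6.0. In NRK-52E the overlap rested on A035, at 127 FPM, since the other 5 samples at pH 7.4 had 152 to 167 FPM and lay above all samples at pH 6.0. Mean levels were 153 ± 13.8 FPM and 136 ± 4.74 FPM in NRK-52E, a log2 fold change of -0.17 ± 0.077, or -0.22 without A035. The NRK-49F means of 164 ± 11.3 and 148 ± 18.8 FPM differed by -0.14 ± 0.081 on the log2 scale. By sample group the log2 fold change of Yap1 was -0.21 in 1 and -0.11 in 3 for NRK-52E, and -0.24 in 4 and -0.09 in 6 for NRK-49F. In descending order the levels were NRK-49F at pH 7.4, NRK-52E at pH 7.4, NRK-49F at pH 6.0 and NRK-52E at pH 6.0, with every pair of neighbours overlapping.

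Wwtr1 (ENSRNOG00000016617, chromosome 2) separated the cell lines rather than the pH values. Its NRK-52E samples measured 241 at the lowest, 263 at the median and 298 at the highest FPM at pH 7.4 and 224 at the lowest, 232 at the median and 246 at the highest FPM at pH 6.0. NRK-49F samples had 73.5, 87.3 and 90.6 FPM as lowest, median and highest at pH 7.4, and 87.0, 90.7, 90.9, 87.7 and 92.8 FPM at pH 6.0. All 12 NRK-52E samples lay above all 11 NRK-49F samples, while within a line the pH values overlapped. In NRK-52E the overlap rested on A026, at 246 FPM, since the other 5 samples at pH 6.0 had 224 to 235 FPM and lay below all samples at pH 7.4. Means were 266 ± 23 and 232 ± 8.21 FPM in NRK-52E, a log2 fold change of -0.20 ± 0.064, which was -0.07 in sample group 1 alone and -0.31 in group 3 alone. In NRK-49F they were 85.3 ± 6.30 and 89.8 ± 2.40 FPM, a log2 fold change of 0.07 ± 0.067. The median log2 fold change of all tested genes was -0.12 in NRK-52E and 0.00 in NRK-49F, and it moved to 0.00 in NRK-52E when that line was scaled and fitted alone, where Wwtr1 stood at -0.11. Its order was NRK-52E at pH 7.4, NRK-52E at pH 6.0, NRK-49F at pH 6.0 and NRK-49F at pH 7.4, and the middle neighbours alone were apart.

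**Figure D1:**
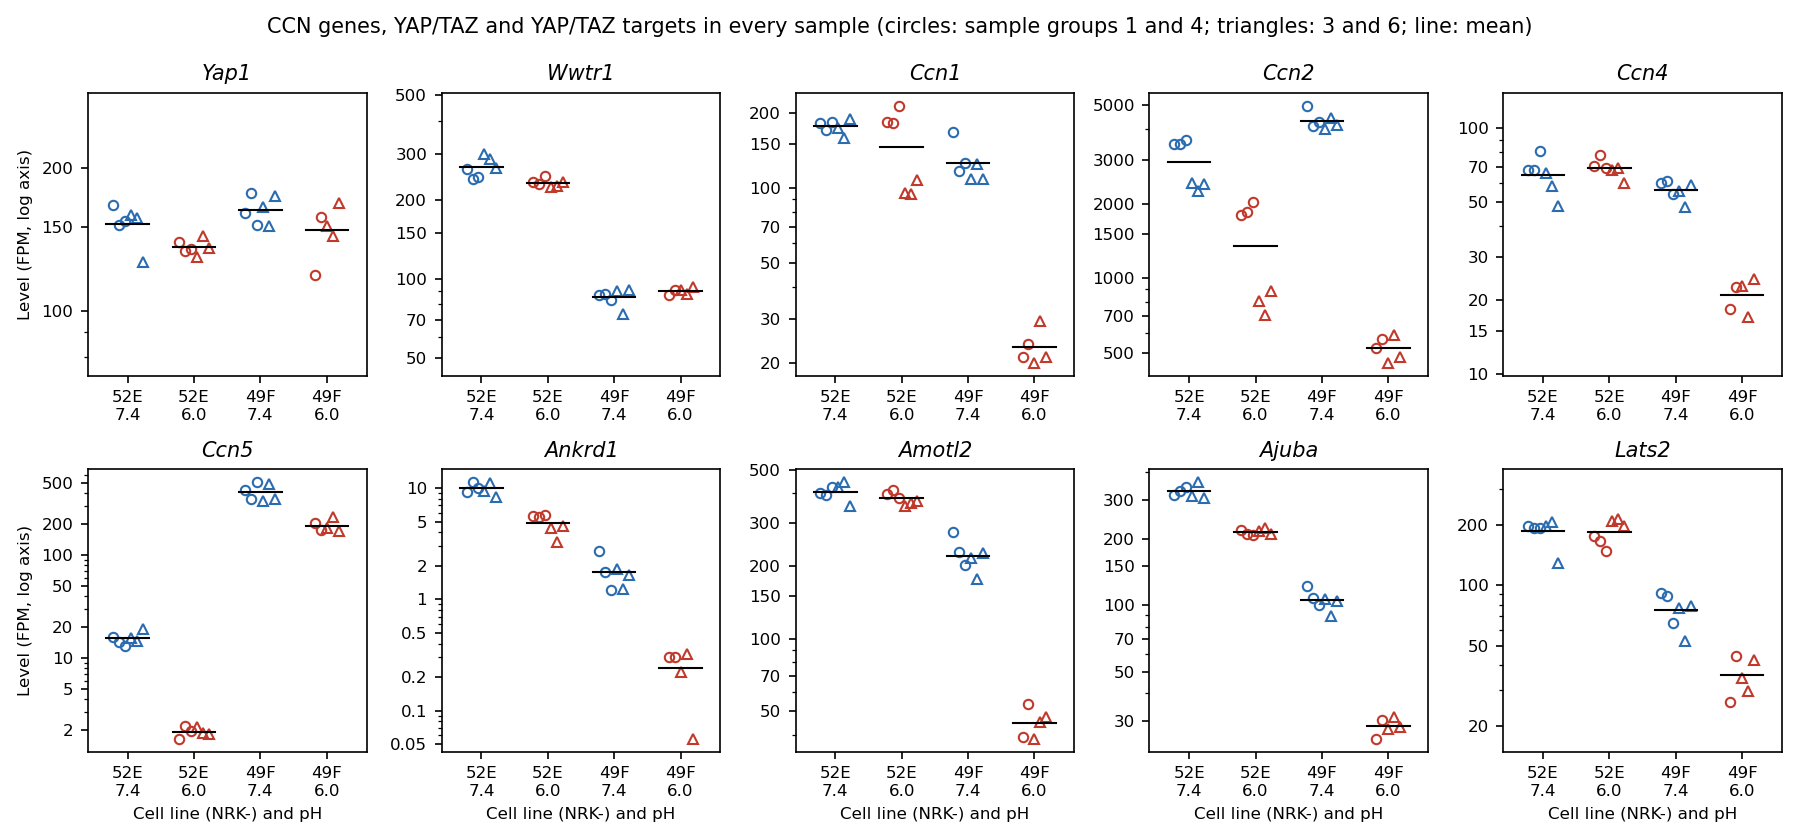
Level of each of the 10 genes in every sample, in FPM on a log axis, by cell line (NRK-52E or NRK-49F) and pH, with a line at the mean of each condition; circles are sample groups 1 and 4 and triangles sample groups 3 and 6. The 5 NRK-49F samples at pH 6.0 lie below all 6 at pH 7.4 for 8 genes, and the NRK-52E samples at pH 6.0 fall into 2 sets by sample group for Ccn1, Ccn2, Ankrd1, Amotl2 and Lats2.

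Among the CCN genes, which encode secreted proteins of the extracellular matrix that bind integrins, Ccn1 (ENSRNOG00000014350, chromosome 2) was low in 1 condition. Its NRK-49F samples measured 109, 121 and 167 FPM as lowest, median and highest at pH 7.4, and 21.1, 23.7, 20, 29.3 and 21.1 FPM at pH 6.0. Every sample at pH 6.0 was below every sample at pH 7.4, and the means of 126 ± 21.6 and 23.1 ± 3.75 FPM gave a log2 fold change of -2.44 ± 0.19 (-2.61 in sample group 4, -2.28 in sample group 6). NRK-52E samples measured 158, 178 and 189 FPM at pH 7.4 and 94.4, 145 and 213 FPM at pH 6.0. These ranges overlapped, while the samples at pH 6.0 separated by sample group. Those of sample group 1 had 184, 182 and 213 FPM and those of sample group 3 had 95.7, 94.4 and 108 FPM. The group means at pH 7.4 were 179 and 174 FPM, so the log2 fold change was 0.12 in sample group 1 and -0.81 in sample group 3, against -0.27 ± 0.17 over both. Over the 4 conditions, Ccn1 ranked NRK-52E at pH 7.4, NRK-52E at pH 6.0, NRK-49F at pH 7.4 and NRK-49F at pH 6.0, and no neighbours but the last pair were apart.

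Ccn2 (ENSRNOG00000015036, chromosome 1), which encodes connective tissue growth factor, was lower at pH 6.0 in both lines. NRK-49F samples measured 3990, 4201 and 4966 FPM as lowest, median and highest at pH 7.4, and 523, 568, 455, 591 and 480 FPM at pH 6.0, with no overlap. The means were 4315 ± 351 and 523 ± 57.2 FPM, 8.24-fold apart, with a log2 fold change of -3.04 ± 0.25 (-3.03 and -3.04 in sample groups 4 and 6). In NRK-52E the samples had 2239, 2937 and 3622 FPM at pH 7.4 and 710, 1340 and 2027 FPM at pH 6.0. The ranges did not overlap, but sample group 3 was below sample group 1 at both pH values, with means of 3521 and 2350 FPM for sample groups 1 and 3 at pH 7.4 and 1891 and 803 FPM at pH 6.0. Single samples at pH 6.0 had 1791, 1856 and 2027 FPM in sample group 1 and 811, 710 and 888 FPM in sample group 3. The log2 fold change in NRK-52E was -1.12 ± 0.22 over means of 2936 ± 647 and 1347 ± 604 FPM, with -0.89 in sample group 1 and -1.55 in sample group 3. All neighbours were apart in the order of NRK-49F at pH 7.4, NRK-52E at pH 7.4, NRK-52E at pH 6.0 and NRK-49F at pH 6.0. What the sample groups contribute to these splits was not tested.

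Ccn4 (ENSRNOG00000007078, chromosome 7), first described as a WNT1-inducible gene, was at similar levels in 3 conditions and low in NRK-49F at pH 6.0. Its NRK-49F samples measured 48.0, 57.5 and 61.2 FPM as lowest, median and highest at pH 7.4, and 18.4, 22.7, 22.8, 17.1 and 24.4 FPM at pH 6.0. No value at pH 6.0 reached the range at pH 7.4, and the log2 fold change was -1.42 ± 0.12 over means of 56.4 ± 4.90 and 21.1 ± 3.17 FPM. NRK-52E samples had 48.5, 66.7 and 80.7 FPM at pH 7.4 and 60, 69.0 and 78.1 FPM at pH 6.0, overlapping, with means of 64.8 ± 10.8 and 69.0 ± 5.78 FPM and a log2 fold change of 0.09 ± 0.11. The order was NRK-52E at pH 6.0, NRK-52E at pH 7.4, NRK-49F at pH 7.4 and NRK-49F at pH 6.0, and only the last neighbours were apart. By sample group the log2 fold change of Ccn4 was 0.01 in 1 and 0.19 in 3 for NRK-52E, and -1.51 in 4 and -1.34 in 6 for NRK-49F.

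Ccn5 (ENSRNOG00000010666, chromosome 3), whose product lacks the C-terminal domain of the other CCN proteins, was lower at pH 6.0 in both lines. NRK-52E samples measured 13.1, 15.2 and 19.2 FPM as lowest, median and highest at pH 7.4 and 1.65, 1.93 and 2.18 FPM at pH 6.0. All samples at pH 6.0 were below all at pH 7.4, with means of 15.5 ± 2.08 and 1.94 ± 0.204 FPM and a log2 fold change of -2.99 ± 0.14. NRK-49F samples stood far higher, at 335, 390 and 512 FPM at pH 7.4 and 205, 173, 183, 234 and 171 FPM at pH 6.0. These did not overlap either, with means of 410 ± 75.7 and 193 ± 26.6 FPM and a log2 fold change of -1.09 ± 0.12. The order ran from NRK-49F at pH 7.4 over NRK-49F at pH 6.0 and NRK-52E at pH 7.4 to NRK-52E at pH 6.0, and all neighbours were apart. By sample group the log2 fold change of Ccn5 was -2.89 in 1 and -3.08 in 3 for NRK-52E, and -1.19 in 4 and -1.0 in 6 for NRK-49F.

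The summed levels of markers of both cell types were lower at pH 6.0 in both lines. The 12 fibroblast markers together came to 4983, 6177 and 8161 FPM as the lowest, median and highest NRK-52E samples at pH 7.4 and to 1844, 2416 and 3123 FPM at pH 6.0. In NRK-49F they came to 10883, 12901 and 13876 FPM at pH 7.4 and 7548, 8218 and 10084 FPM at pH 6.0. The epithelial markers, mostly Krt8, came to 463, 491 and 683 FPM in NRK-52E at pH 7.4 and 200, 217 and 265 FPM at pH 6.0, and in NRK-49F to 668, 779 and 1207 FPM and 438, 593 and 697 FPM, where alone the pH values overlapped. Single fibroblast markers did not all follow. In NRK-49F the mean of Vcam1 went from 272 ± 30.5 to 402 ± 72.4 FPM, Twist1 from 77.4 ± 8.06 to 92.3 ± 8.90 FPM, Col6a3 from 30.4 ± 6.05 to 36.8 ± 9.88 FPM and Pdgfra from 306 ± 48.5 to 304 ± 76.1 FPM. In NRK-52E, Col6a3 was higher at pH 6.0 as well, going from 0.132 ± 0.160 to 1.84 ± 0.409 FPM. Col3a1 was the most abundant of them in NRK-52E, at 6149 ± 1378 and 2402 ± 645 FPM, and sample A021 had the lowest sum at pH 7.4. Other markers were highest in that sample. Pdgfra had 4.73 FPM in A021 and 0.679 to 2.21 FPM in the other 5 samples at pH 7.4, and averaged 0.0263 ± 0.0439 FPM at pH 6.0. Against its NRK-49F mean at pH 7.4, Pdgfra stood at 1.54% in A021 and at 0.408% over the rest, while Ccn5 stood at 3.92% in A021 and 3.76% over the rest. Without A021 the log2 fold change of Ccn5 in NRK-52E was -2.98. The part of these markers in the difference in Ccn5 was not tested.

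Ankrd1 (ENSRNOG00000018598, chromosome 1), a nuclear ankyrin repeat protein gene and a common YAP/TAZ readout, had low counts. NRK-52E samples measured 8.38, 9.81 and 11.4 FPM as lowest, median and highest at pH 7.4 and 3.25, 5.03 and 5.73 FPM at pH 6.0, and the NRK-49F samples at pH 7.4 had 1.22, 1.72 and 2.73 FPM. At pH 6.0, NRK-49F samples A042, A043, A054, A055 and A056 held 6, 5, 6, 9 and 1 counts, or 0.306, 0.305, 0.223, 0.325 and 0.0556 FPM. Neither line had overlapping pH values. The exact (Clopper-Pearson) 95% interval of sample A056 ran from 0.00141 to 0.310 FPM and that of A055 from 0.149 to 0.617 FPM. The highest upper bound was 0.711 FPM, in A043, beside 1.22 FPM for the lowest NRK-49F sample at pH 7.4. Such intervals cover counting error only. The log2 fold change was -1.04 ± 0.19 in NRK-52E, over means of 9.98 ± 1.15 and 4.84 ± 0.972 FPM. It was -2.81 ± 0.29 in NRK-49F, over means of 1.75 ± 0.553 and 0.243 ± 0.112 FPM. By sample group the log2 fold change of Ankrd1 was -0.86 in 1 and -1.26 in 3 for NRK-52E, and -2.67 in 4 and -2.83 in 6 for NRK-49F. All neighbours were apart in the order of NRK-52E at pH 7.4, NRK-52E at pH 6.0, NRK-49F at pH 7.4 and NRK-49F at pH 6.0.

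Amotl2 and Lats2 encode proteins that restrain YAP/TAZ, while Ajuba proteins are known to inhibit LATS kinases. Amotl2 (ENSRNOG00000008487, chromosome 8), an angiomotin family gene whose product holds YAP at junctions, measured 176, 221 and 275 FPM as lowest, median and highest in NRK-49F at pH 7.4, and 39.2, 53.7, 38.5, 45.0 and 47.6 FPM at pH 6.0. The pH values did not overlap, and the log2 fold change was -2.30 ± 0.11 over means of 221 ± 32.8 and 44.8 ± 6.27 FPM. NRK-52E samples had 353, 410 and 445 FPM at pH 7.4 and 355, 376 and 411 FPM at pH 6.0, which overlapped, with means of 406 ± 31.9 and 380 ± 21.2 FPM and a log2 fold change of -0.09 ± 0.093. By sample group the log2 fold change of Amotl2 was -0.02 in 1 and -0.16 in 3 for NRK-52E, and -2.34 in 4 and -2.24 in 6 for NRK-49F. Ajuba (ENSRNOG00000012791, chromosome 15), a LIM protein gene, was lower at pH 6.0 in both lines. In NRK-52E it had 306, 323 and 362 FPM at pH 7.4 and 209, 214 and 223 FPM at pH 6.0, and in NRK-49F 89.1, 106 and 122 FPM at pH 7.4 and 24.8, 30.2, 27.4, 31.0 and 28.1 FPM at pH 6.0. Neither line overlapped between pH values, and the log2 fold changes were -0.61 ± 0.070 in NRK-52E (means 328 ± 21 and 215 ± 5.50 FPM) and -1.89 ± 0.078 in NRK-49F (mean at pH 6.0 28.3 ± 2.45 FPM). By sample group the log2 fold change of Ajuba was -0.62 in 1 and -0.59 in 3 for NRK-52E, and -2.0 in 4 and -1.80 in 6 for NRK-49F.

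Lats2 (ENSRNOG00000056343, chromosome 15), the gene of the kinase that phosphorylates YAP and TAZ, measured 52.9, 77.7 and 91.3 FPM as lowest, median and highest in NRK-49F at pH 7.4, and 26.4, 44.6, 34.6, 29.7 and 42.6 FPM at pH 6.0. These samples did not overlap, and the log2 fold change was -1.09 ± 0.15 over means of 75.5 ± 14.5 and 35.6 ± 7.91 FPM. In NRK-52E, with 129, 195 and 206 FPM at pH 7.4 and 148, 186 and 213 FPM at pH 6.0, the ranges overlapped and the log2 fold change was -0.01 ± 0.14, over means of 186 ± 28.1 and 184 ± 25.8 FPM. Here sample group 1 averaged 163 FPM and sample group 3 206 FPM at pH 6.0, and the log2 fold change had opposite signs, -0.25 and 0.22. For Amotl2, Ajuba and Lats2 alike the order was NRK-52E at pH 7.4, NRK-52E at pH 6.0, NRK-49F at pH 7.4 and NRK-49F at pH 6.0. Only the first neighbours overlapped, and only for Amotl2 and Lats2.

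By the count of samples that did not overlap, 8 of the 10 genes were lower at pH 6.0 in NRK-49F, where 10.2% of all tested genes were, and 4 of 10 in NRK-52E, where 23.2% were. 0 of 10 were higher without overlap in either line, where 10.4% of all tested genes were in NRK-49F and 15.4% in NRK-52E. The genes were chosen on these levels, so nothing is read from the counts.

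The genes with the most similar pattern over the 23 samples were taken among 10237 genes averaging at least 5 FPM, by the root mean square difference of centred log2(FPM + 0.5). For Ccn1 these were Bmp4 (0.194), Smad6 (0.276) and Amotl2 (0.370), where Bmp4 encodes a secreted BMP ligand and Smad6 an inhibitor of BMP signalling. Bmp4 averaged 150 and 115 FPM in NRK-52E and 127 and 21.4 FPM in NRK-49F, at pH 7.4 and 6.0. For Ccn2 they were Sema3a (0.464), Atp8b3 (0.493) and Akap12 (0.562), and the secreted guidance factor gene Sema3a averaged 103 and 31.9 FPM in NRK-52E and 107 and 23.2 FPM in NRK-49F. Nearest to Yap1 were Tbc1d14 (0.0891), Tob2 (0.0896) and Evi5 (0.0929). Nearest to Wwtr1 were Pnrc1 (0.143), Sgk3 (0.15) and Il15 (0.158), and Pnrc1 averaged 166 and 138 FPM in NRK-52E and 54.6 and 49.2 FPM in NRK-49F.

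Promoter windows of 300 bases around the gene start came from a set made from RefSeq (build GRCr8), which held 6 of the 10 genes. Ccn4, Ccn5, Ankrd1 and Lats2 were not in this set, which does not show that RefSeq lacks them. Both strands were searched for CATTCC, the core letters of TEAD binding (GGAATG on the reverse strand), for TGANTCA, the letters of AP-1 binding, and for the CArG box of serum response factor. CATTCC was in 5 of the 6 windows, Wwtr1 being without it, and in 14.2% of all 33469 windows. Of the other pathway lists it was in 1 of 11 windows of the target genes, 1 of 4 of the TEAD and VGLL genes, 1 of 6 of the receptors, 3 of 13 of the Hippo kinases and scaffolds, 2 of 5 of the YAP, TAZ or LATS binding scaffolds and 0 of 1 of the other CCN genes. TGANTCA and the CArG box were in 0 of the 6, and in 7.33% and 1.64% of all windows. Ccn2 held CATTCC letters 3 times, as did 0.0956% of all windows at least, and Wtip, of the scaffolds that bind YAP, TAZ or LATS, held them 4 times. A match is a description and neither a site nor a cause, and a window without one says only that the letters are not there. The windows of Ccn2 (chr1:22624565-22624864, minus strand), Ccn1 (chr2:237225640-237225939, minus strand), Amotl2 (chr8:112182376-112182675, plus strand) and Ajuba (chr15:31999993-32000292, minus strand) are shown since these genes were lower without overlap in NRK-49F, 5′ to 3′ on the strand of the gene, with the matches in capitals.
Ccn2: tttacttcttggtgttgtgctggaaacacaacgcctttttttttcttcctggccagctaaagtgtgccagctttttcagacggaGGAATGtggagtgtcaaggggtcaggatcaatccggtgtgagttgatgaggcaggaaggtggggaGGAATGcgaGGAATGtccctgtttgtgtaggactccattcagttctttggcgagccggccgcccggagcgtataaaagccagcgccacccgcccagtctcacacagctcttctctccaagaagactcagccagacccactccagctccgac
Ccn1: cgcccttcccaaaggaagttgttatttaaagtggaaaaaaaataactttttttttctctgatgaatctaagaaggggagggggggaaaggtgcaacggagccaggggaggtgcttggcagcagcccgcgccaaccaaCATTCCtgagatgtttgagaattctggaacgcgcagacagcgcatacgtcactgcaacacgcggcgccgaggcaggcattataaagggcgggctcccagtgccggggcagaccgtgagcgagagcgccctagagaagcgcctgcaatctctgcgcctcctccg
Amotl2: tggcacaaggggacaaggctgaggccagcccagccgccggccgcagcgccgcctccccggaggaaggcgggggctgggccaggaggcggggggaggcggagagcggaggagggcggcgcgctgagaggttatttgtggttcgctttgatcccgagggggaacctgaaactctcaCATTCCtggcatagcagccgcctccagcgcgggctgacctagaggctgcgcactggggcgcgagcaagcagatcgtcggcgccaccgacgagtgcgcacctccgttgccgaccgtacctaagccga
Ajuba: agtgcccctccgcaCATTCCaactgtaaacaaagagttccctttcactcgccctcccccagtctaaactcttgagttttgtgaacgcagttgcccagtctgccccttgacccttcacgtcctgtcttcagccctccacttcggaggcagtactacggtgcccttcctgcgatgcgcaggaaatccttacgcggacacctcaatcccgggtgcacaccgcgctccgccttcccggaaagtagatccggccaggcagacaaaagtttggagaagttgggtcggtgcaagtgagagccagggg

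Other genes of the pathway were taken from 6 lists of 57 genes, of which 56 were in the table and 52 were tested (edgeR quasi-likelihood test, Benjamini-Hochberg over all tested genes). In NRK-52E 7 rose, 28 fell and 17 did not pass, so 35 of 52 were called, where 61.2% of all tested genes were, and the median log2 fold change was -0.41 beside -0.12 for all tested genes. Among the 28 were Axl, Ccn3 and Itgb3, which were low in NRK-52E, passed the filter on low counts through NRK-49F and had no value with NRK-52E fitted alone. In NRK-49F 5 rose, 20 fell and 27 did not pass, so 25 of 52 were called, where 28.9% of all tested genes were, with a median of -0.37 beside 0.00. Of all tested genes 36.6% fell and 24.7% rose in NRK-52E, and 14.4% fell and 14.5% rose in NRK-49F, and the counts of the single lists stand against these shares. The changes differed between the lines for 21 of the 52, where 41.4% of all tested genes differed. Axl was among the 21, and its call was lost without A021, at a difference of -1.12. With NRK-52E fitted alone the split was 10 higher and 19 lower of 49 tested. Of all 13377 genes tested in that fit, 4077 rose and 4258 fell, with a median log2 fold change of 0.00. Dock5, F3, Itgb1, Itgb5, Tead2 and Tead4 no longer passed in it, while Lats1, Sav1 and Wwc1 then did. In NRK-49F alone Wwc1 no longer passed, and Axl, Tead2 and Wtip did. With sample group 1 only, calls were lost in NRK-52E for Arhgef17, Ccdc80, F3, Itgb1, Itgb3, Mob1a, Sdc4, Tead2 and Vgll3, and with sample group 3 only for Axl, Ccn3, Crim1, Itga5, Itgb3, Limd1, Lrp6, Rbms3, Tead1, Tead4 and Wtip. With sample group 4 only, those of Itga6, Map4k4, Ptpn14, Sdc4, Taok2 and Wwc1 were lost in NRK-49F, and with sample group 6 only, among others, those of Asap1, Lrp6, Map4k4, Ptpn14, Sdc4 and Wwc1. Calls were gained in NRK-52E for Ptpn14, Taok1 and Wwc1 with sample group 1 only, for Mob1b and Nf2 with sample group 3 only and for Itgav and Ptpn14 with the sample group as a term. In NRK-49F Tead2 gained it with either sample group only or the sample group as a term, Limd1 with sample group 4 only or the sample group as a term, and Itgb1, Limd1, Tead1 and Wtip under DESeq2, with Limd1 and Wtip also under RLE scaling. Amot, which had counts in 1 NRK-49F sample alone and passed the filter through NRK-52E, is left aside there. The lists had been chosen with earlier results of these samples known, so their counts are not independent evidence of a direction. Samples all beyond the pH 7.4 mean, as counted below, can still overlap with those at pH 7.4. Among calls given with that count, they overlapped in NRK-52E for Mob1a, Limd1, Wtip, Tead1, Tead2, Tead4, Crim1, F3, Arhgef17, Lrp6 and Sdc4. In NRK-49F they overlapped for Wwc1 and Itga6.

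Of the Hippo kinases and scaffolds, 15 of 16 were tested. In NRK-52E 3 rose, 2 fell and 10 did not pass (median log2 fold change 0.11), and in NRK-49F 1 rose, 5 fell and 9 did not pass (median -0.12). Map4k4, a kinase that acts on LATS beside MST, rose in NRK-52E from 104 ± 9.58 to 161 ± 10.1 FPM (log2 fold change 0.63 ± 0.076, edgeR adjusted p = 1.58e-07, higher than the pH 7.4 mean in 6 of 6 samples). It also rose in NRK-49F (log2 fold change 0.34 ± 0.079, edgeR adjusted p = 0.00223, higher than the pH 7.4 mean in 5 of 5 samples). The MST kinase genes moved in opposite directions in NRK-52E, Stk4 upwards (log2 fold change 0.50 ± 0.11, edgeR adjusted p = 0.000293, higher than the pH 7.4 mean in 6 of 6 samples) and Stk3 downwards (log2 fold change -0.44 ± 0.073, edgeR adjusted p = 1.46e-05, lower than the pH 7.4 mean in 6 of 6 samples). Mob1a, a LATS cofactor gene, rose there by less (log2 fold change 0.20 ± 0.079, edgeR adjusted p = 0.0294, higher than the pH 7.4 mean in 6 of 6 samples). Its call was lost without any 1 of A035, A036, A037 and A038, with a log2 fold change of 0.16 to 0.19. Fat4, an atypical cadherin gene, fell in NRK-52E at low levels, from 1.26 ± 0.472 to 0.207 ± 0.227 FPM (log2 fold change -2.61 ± 0.43, edgeR adjusted p = 1.52e-05, lower than the pH 7.4 mean in 6 of 6 samples), and its log2 fold change was -3.23 without A024. In NRK-49F the scaffold genes Frmd6 (log2 fold change -0.97 ± 0.16, edgeR adjusted p = 8.05e-05, lower than the pH 7.4 mean in 5 of 5 samples) and Wwc2 (log2 fold change -0.79 ± 0.11, edgeR adjusted p = 3.67e-06, lower than the pH 7.4 mean in 5 of 5 samples) fell. Dchs1, the gene not tested, averaged 0.0307 ± 0.0359 and 0.269 ± 0.147 FPM in NRK-52E.

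Wwc1, which encodes the scaffold KIBRA, rested on 1 library in NRK-49F. It averaged 114 ± 13.8 and 150 ± 42.1 FPM in NRK-52E and 1.84 ± 3.33 and 0.230 ± 0.230 FPM in NRK-49F, at pH 7.4 and 6.0. NRK-49F sample A051 at pH 7.4 held 8.56 FPM against a median of 0.522 FPM. The call in NRK-49F (log2 fold change -3.02 ± 0.94, edgeR adjusted p = 0.0174, lower than the pH 7.4 mean in 5 of 5 samples) was lost without A051, at -1.24. It was also lost without A055, at -2.68, and stood at -3.94 without A054. With sample group 4 or 6 only it was -2.07 and -3.51 and passed in neither.

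All 6 genes of scaffolds that bind YAP, TAZ or LATS were tested. In NRK-52E 1 rose, 2 fell and 3 did not pass (median log2 fold change -0.18), and in NRK-49F 0 rose, 2 fell and 4 did not pass (median -0.41, or -0.39 without Amot, which was at 0 in all NRK-49F samples at pH 6.0). The LIM protein genes of the Ajuba family moved apart in NRK-52E, where Wtip rose (log2 fold change 0.31 ± 0.093, edgeR adjusted p = 0.00632, higher than the pH 7.4 mean in 6 of 6 samples) and Limd1 fell (log2 fold change -0.41 ± 0.11, edgeR adjusted p = 0.00224, lower than the pH 7.4 mean in 6 of 6 samples). Ptpn14, a phosphatase gene, fell in NRK-49F (log2 fold change -0.74 ± 0.19, edgeR adjusted p = 0.00548, lower than the pH 7.4 mean in 5 of 5 samples). Within sample groups 4 and 6 the log2 fold change of Ptpn14 was -0.89 and -0.65, and it passed in neither alone.

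Of the TEAD factors, which bind DNA for YAP and TAZ, and the VGLL cofactors, which compete for them, 7 of 8 were in the table and 6 were tested. Vgll1 was not found by symbol, and Vgll2 had 0 counts in all 23 samples, where 3 counts are up to 0.203 FPM. In NRK-52E 0 rose, 5 fell and 1 did not pass (median log2 fold change -0.48), where 36.6% of all tested genes fell, and in NRK-49F 0 rose, 1 fell and 5 did not pass (median -0.38), where 14.4% fell. All TEAD genes fell in NRK-52E, Tead1 (log2 fold change -0.72 ± 0.28, edgeR adjusted p = 0.0296, lower than the pH 7.4 mean in 6 of 6 samples), Tead2 (log2 fold change -0.74 ± 0.23, edgeR adjusted p = 0.00680, lower than the pH 7.4 mean in 6 of 6 samples), Tead3 (log2 fold change -0.36 ± 0.091, edgeR adjusted p = 0.00135, lower than the pH 7.4 mean in 6 of 6 samples) and Tead4 (log2 fold change -0.47 ± 0.16, edgeR adjusted p = 0.0156, lower than the pH 7.4 mean in 6 of 6 samples). The call of Tead1 was lost without any 1 of A021, A026, A036 and A038, at log2 fold changes of -0.70 to -0.51, and those of Tead2 and Tead4 were lost with NRK-52E fitted alone. By sample group Tead2 stood at -0.33 in 1, where it no longer passed, and at -1.47 in 3. In NRK-49F no TEAD gene passed, with log2 fold changes of -0.76 for Tead1, -0.54 for Tead2, -0.01 for Tead3 and -0.08 for Tead4, although Tead2 passed there with the line fitted alone, with either sample group only or with the sample group as a term, and Tead1 under DESeq2. The difference between the lines passed for Tead3 (-0.35 ± 0.13, edgeR adjusted p = 0.0356), but neither under RLE scaling nor under DESeq2. Vgll4 averaged 42.3 ± 4.84 and 45.0 ± 3.59 FPM in NRK-52E and 55.9 ± 7.49 and 47.7 ± 7.48 FPM in NRK-49F, and passed in neither.

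Vgll3 had the larger fall in NRK-49F. Its samples measured 15.1, 17.6 and 21.2 FPM as lowest, median and highest at pH 7.4, and 2.04, 4.27, 2.30, 2.53 and 1.94 FPM at pH 6.0 (log2 fold change -2.77 ± 0.16, edgeR adjusted p = 1.19e-11, lower than the pH 7.4 mean in 5 of 5 samples). NRK-52E samples had 41.8, 47.5 and 51.6 FPM at pH 7.4 and 27.2, 33.3 and 39.5 FPM at pH 6.0 (log2 fold change -0.48 ± 0.13, edgeR adjusted p = 0.00258, lower than the pH 7.4 mean in 6 of 6 samples). Neither line overlapped between pH values, and the changes differed between the lines (difference of log2 fold changes 2.29 ± 0.21, edgeR adjusted p = 8.17e-09).

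Of the other CCN genes, Ccn3 passed the filter on low counts and Ccn6 did not. Ccn3, a CCN gene known to counteract Ccn2, measured 476, 573 and 709 FPM as lowest, median and highest in NRK-49F at pH 7.4, and 58.8, 76.2, 55.2, 66.3 and 61.5 FPM at pH 6.0. It fell without overlap, from 573 ± 82.2 to 63.6 ± 8.11 FPM (log2 fold change -3.17 ± 0.57, edgeR adjusted p = 0.000153, lower than the pH 7.4 mean in 5 of 5 samples). In NRK-52E it was near 0 except in A021 and A022 at pH 7.4, with 0, 0.138 and 8.53 FPM as lowest, median and highest there and 0, 0 and 0.175 FPM at pH 6.0. These ranges overlapped, and no test is given since Ccn3 passed the filter through NRK-49F. A021, which held the 8.53 FPM, was also highest for Pdgfra. The part of fibroblast markers in this value was not tested. Ccn6 averaged 0.105 ± 0.0893 and 0.0503 ± 0.0613 FPM in NRK-52E and 0.0490 ± 0.0597 and 0.0922 ± 0.0569 FPM in NRK-49F, at pH 7.4 and 6.0.

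Of 16 other YAP/TAZ target genes, 15 were tested, and Igfbp3 was not. In NRK-52E 2 rose, 12 fell and 1 did not pass (median log2 fold change -0.68), where 36.6% of all tested genes fell. This count and this median include Axl, which passed the filter on low counts through NRK-49F and had no value with NRK-52E fitted alone. Nothing is read from its fall in NRK-52E. In NRK-49F 2 rose, 9 fell and 4 did not pass (median -0.81), where 14.4% fell. Nuak2, a kinase gene, fell in NRK-52E from 40.1 ± 6.85 to 17 ± 1.10 FPM (log2 fold change -1.24 ± 0.099, edgeR adjusted p = 1.92e-10, lower than the pH 7.4 mean in 6 of 6 samples) and in NRK-49F from 22.4 ± 1.94 to 9.64 ± 0.673 FPM (log2 fold change -1.21 ± 0.11, edgeR adjusted p = 7.84e-09, lower than the pH 7.4 mean in 5 of 5 samples). Fjx1, a gene of the Golgi-resident Four-jointed kinase family, fell in NRK-52E from 8.40 ± 1.12 to 0.671 ± 0.15 FPM (log2 fold change -3.60 ± 0.14, edgeR adjusted p = 2.21e-15, lower than the pH 7.4 mean in 6 of 6 samples). Its fall in NRK-49F was smaller (log2 fold change -1.37 ± 0.11, edgeR adjusted p = 1.5e-09, lower than the pH 7.4 mean in 5 of 5 samples), with a difference of -2.22 ± 0.18, edgeR adjusted p = 1.11e-09. Crim1, which encodes a membrane protein that binds BMPs, fell more in NRK-49F (log2 fold change -1.88 ± 0.28, edgeR adjusted p = 1.65e-05, lower than the pH 7.4 mean in 5 of 5 samples) than in NRK-52E (log2 fold change -0.78 ± 0.25, edgeR adjusted p = 0.00934, lower than the pH 7.4 mean in 6 of 6 samples), with a difference of 1.10 ± 0.37, edgeR adjusted p = 0.0191, which passed neither with sample groups 1 and 4 only nor with 3 and 6 only. Its NRK-52E samples had 94.7 to 271 FPM at pH 7.4 and 110 to 151 FPM at pH 6.0, so the lowest was at pH 7.4. Ccdc80, an extracellular matrix gene, fell in NRK-49F (log2 fold change -1.54 ± 0.19, edgeR adjusted p = 1.11e-06, lower than the pH 7.4 mean in 5 of 5 samples). In NRK-52E its log2 fold change was -0.60 ± 0.17, with -0.08 in sample group 1 and -1.31 in sample group 3.

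The stress gene Gadd45a rose in both lines, from 65.6 ± 4.01 to 451 ± 150 FPM in NRK-52E (log2 fold change 2.78 ± 0.16, edgeR adjusted p = 1.14e-12, higher than the pH 7.4 mean in 6 of 6 samples) and from 88.7 ± 8.84 to 141 ± 19.4 FPM in NRK-49F (log2 fold change 0.67 ± 0.16, edgeR adjusted p = 0.00251, higher than the pH 7.4 mean in 5 of 5 samples). At pH 6.0 its NRK-52E samples averaged 317 FPM in sample group 1 and 586 FPM in sample group 3. F3, which encodes tissue factor, rose in NRK-49F (log2 fold change 0.91 ± 0.10, edgeR adjusted p = 2.46e-07, higher than the pH 7.4 mean in 5 of 5 samples) and fell in NRK-52E (log2 fold change -0.28 ± 0.096, edgeR adjusted p = 0.0154, lower than the pH 7.4 mean in 6 of 6 samples). The fall in NRK-52E was lost without A037, at -0.21. Arhgef17, a RhoGEF gene, rose in NRK-52E (log2 fold change 0.46 ± 0.15, edgeR adjusted p = 0.00832, higher than the pH 7.4 mean in 6 of 6 samples). Axl, a receptor tyrosine kinase gene, averaged 348 ± 23.3 and 257 ± 20.1 FPM in NRK-49F. In NRK-52E it averaged 1.19 ± 1.68 and 0.155 ± 0.103 FPM, with 4.48 FPM in A021 alone, and no test is given since Axl passed the filter on low counts through NRK-49F. The part of fibroblast markers in it was not tested.

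All 9 genes of CCN receptors were tested. In NRK-52E 1 rose, 6 fell and 2 did not pass (median log2 fold change -0.55, or -0.41 without Itgb3), and in NRK-49F 2 rose, 2 fell and 5 did not pass (median -0.22). The integrin gene Itga6 moved in opposite directions, falling in NRK-52E from 65.4 ± 10.1 to 19.5 ± 7.27 FPM (log2 fold change -1.75 ± 0.20, edgeR adjusted p = 7.58e-08, lower than the pH 7.4 mean in 6 of 6 samples) and rising in NRK-49F from 49.9 ± 10.1 to 78.0 ± 15.7 FPM (log2 fold change 0.64 ± 0.20, edgeR adjusted p = 0.0184, higher than the pH 7.4 mean in 5 of 5 samples). The rise was lost without A054, at 0.59, while the difference between the lines was -2.39 ± 0.28, edgeR adjusted p = 4.5e-07. Itga5, the fibronectin receptor subunit gene, rose in NRK-52E (log2 fold change 0.26 ± 0.072, edgeR adjusted p = 0.00292, higher than the pH 7.4 mean in 6 of 6 samples) and in NRK-49F (log2 fold change 0.55 ± 0.074, edgeR adjusted p = 4.03e-06, higher than the pH 7.4 mean in 5 of 5 samples). Lrp6, a WNT coreceptor gene, fell in both (log2 fold change -0.84 ± 0.26, edgeR adjusted p = 0.00649, lower than the pH 7.4 mean in 6 of 6 samples in NRK-52E, and log2 fold change -1.09 ± 0.27, edgeR adjusted p = 0.00300, lower than the pH 7.4 mean in 5 of 5 samples in NRK-49F). Sdc4, a heparan sulfate proteoglycan gene, fell in NRK-52E (log2 fold change -0.55 ± 0.13, edgeR adjusted p = 0.000917, lower than the pH 7.4 mean in 6 of 6 samples) and in NRK-49F (log2 fold change -0.41 ± 0.14, edgeR adjusted p = 0.0307, lower than the pH 7.4 mean in 5 of 5 samples). The latter call was lost without any 1 of A039, A041, A052, A043, A054 and A056, at log2 fold changes of -0.40 to -0.36. Itgb3 averaged 0.0894 ± 0.105 FPM in NRK-52E at pH 7.4 and was at 0 in all samples at pH 6.0, too low for a fold change. It passed the filter on low counts through NRK-49F, and its call, counted among the 6 that fell, was lost without A022 or without A033. At pH 7.4 it averaged 16.5 ± 4.23 FPM in NRK-49F.

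**Figure D2:**
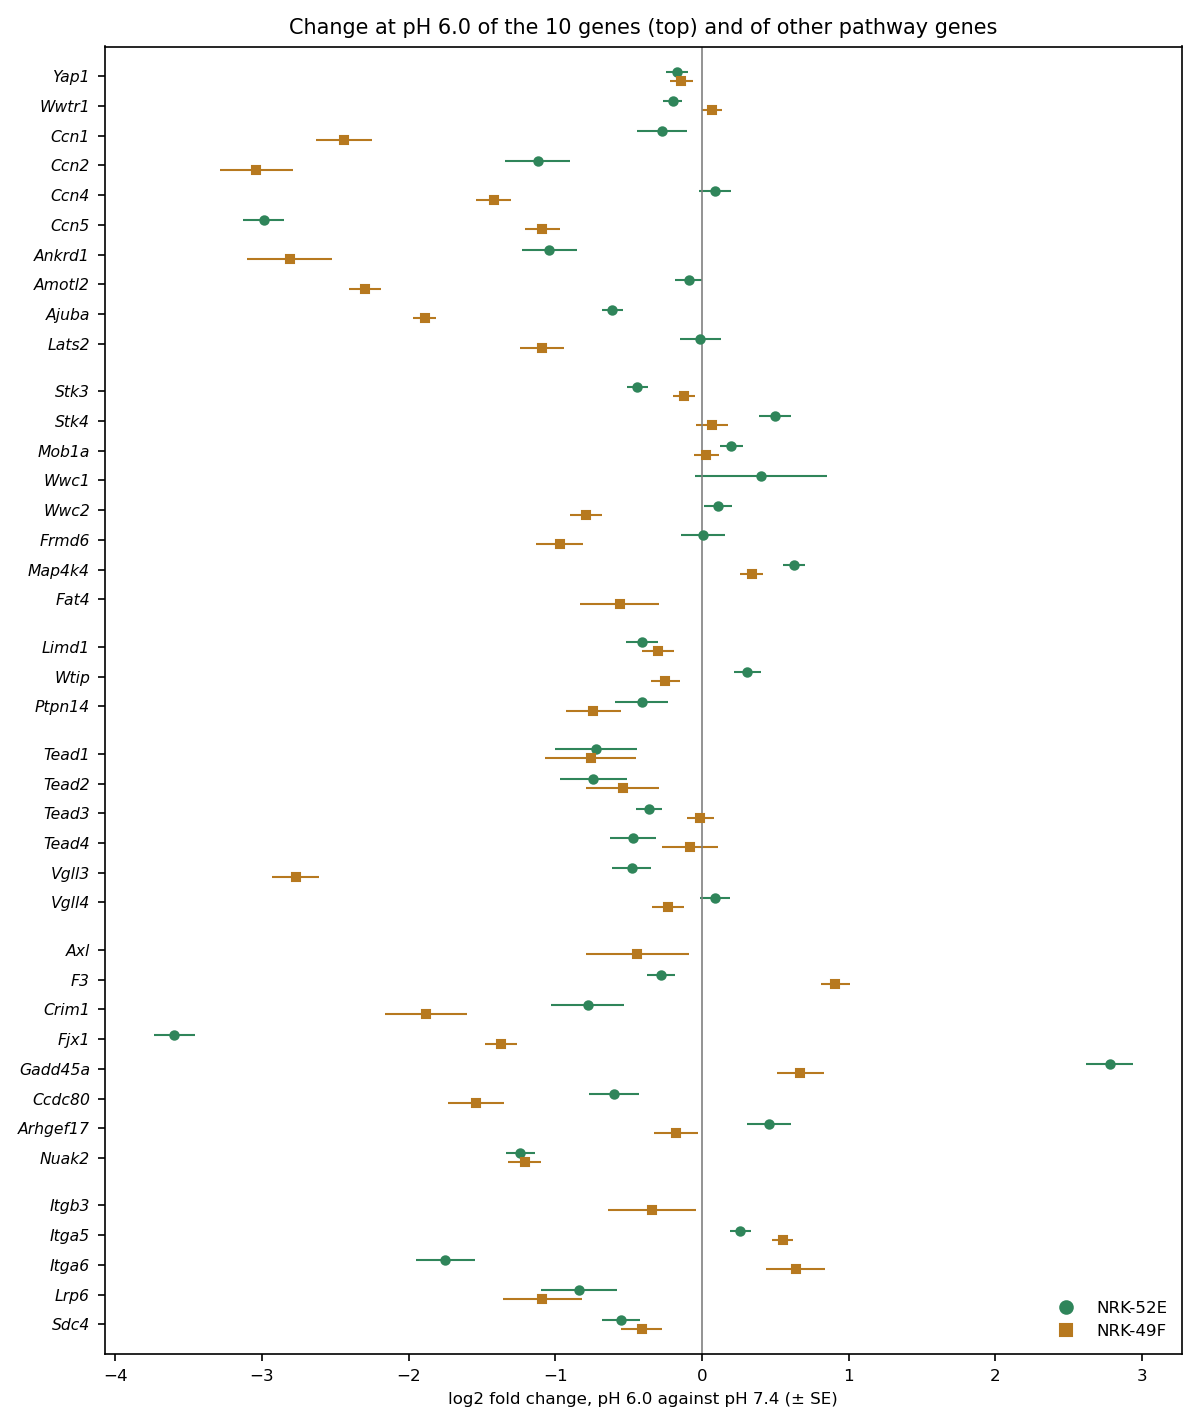
log2 fold change at pH 6.0 against pH 7.4 with its SE in NRK-52E (circles) and NRK-49F (squares), for the 10 genes at the top and for other named pathway genes under them by list; a point of a pathway gene is drawn where the mean at pH 7.4 was at least 2 FPM in that line. Ccn2 lies at -1.12 in NRK-52E and -3.04 in NRK-49F, and Gadd45a at 2.78 and 0.67. Ccn3 is drawn for neither line. Its log2 fold change in NRK-49F was -3.17. In NRK-52E its mean of 2.06 FPM at pH 7.4 came through samples A021 and A022, and it passed the filter on low counts through NRK-49F. Its log2 fold change of -5.29 in NRK-52E was -3.61 without A021, so nothing is read from that value.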

How the data were processed

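Raw counts per gene of rat cells were analysed as deposited. The authors mapped read pairs with HISAT2 2.1.0 and counted them on exons with featureCounts, multi-mapping reads included, and applied no normalization to these counts. The labels' processing notes name the build rn6 while the paper's methods name rn7. The counting options in the methods name no strand setting, and featureCounts by default takes no account of strand, so reads of overlapping and antisense genes cannot be told apart. Samples were grouped by the cell line and pH of their labels, and 13 further columns matched no label and were not used here. Members and lists were chosen with earlier results of these data known.

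All 23 samples entered a single edgeR 4.0.16 model in R 4.3.3 with 4 conditions (filterByExpr with a minimum count of 10 and total of 15, TMM scaling, quasi-likelihood test, Benjamini-Hochberg adjusted p under 0.05). FPM were counts per 1000000 of the TMM-scaled library size. Depth ranged from 16412564 to 34250535 counts, where 3 counts, taken as the floor, correspond to 0.0839 to 0.203 FPM. Named were the 10 genes, all TEAD, VGLL and other CCN genes and, of each other list in each line, up to 3 called genes with the largest rise and 3 with the largest fall, except 1 gene that is counted in its list and not reported here by name. For the most similar genes a pseudocount of 0.5 FPM and a mean of at least 5 FPM were used. The steps were also run on simulated counts in which a small share of genes changed, in NRK-52E only, as many up as down. That setting does not cover a change of most genes, as called in NRK-52E here, so nothing is read from it. Alternatives changed the scaling (RLE), the test (DESeq2 1.42.0), the filter, the threshold, the model (each line alone, sample group as a term), the samples (sample groups apart, each replicate left out), the pseudocount and the library size. Promoter windows came from RefSeq (GRCr8), a build other than that of the counts. Plots came from matplotlib 3.10.9 under Python 3.11.15.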

Additional observations from a re-analysis of the deposited data

Results flagged for a closer look

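Among 40 groups of samples, 10 genes in 4 conditions, 3 held a sample far from the others. The measure was the gap to the next sample over the range of the group. Its limit is passed by chance in about 1 in 20 groups. NRK-49F sample A039 at pH 7.4 had 167 FPM of Ccn1, with the next at 126 FPM. NRK-52E sample A035 at pH 7.4 had 129 FPM of Lats2, with the next at 193 FPM, and 127 FPM of Yap1, with the next at 152 FPM. These groups share a sample, so they are not separate events to set beside that rate. A035 was also the lowest of its condition for Ccn4, Ankrd1, Amotl2 and Ajuba, and the highest for Ccn1 and Ccn5. Without A035 the samples of Yap1 in NRK-52E did not overlap between pH values.

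The change at pH 6.0 differed between the lines (edgeR test of the difference, NRK-52E minus NRK-49F, log2) for 18 of the 28 named pathway genes that had a value in each line fitted alone. Outside the TEAD, VGLL and CCN genes these had been named for the size of their changes. Over the whole lists 21 of the 52 tested genes differed, Axl included, where 41.4% of all tested genes did. Of the Hippo kinases and scaffolds, it was 0.29 for Map4k4, 0.43 for Stk4, -2.05 for Fat4, -0.32 for Stk3, 0.98 for Frmd6 and 0.90 for Wwc2. For Wwc1 it was 3.42, but 1.64 and no longer past the threshold without A051, and 4.34 without A054. Fat4 stood at -2.67 without A024. The scaffold gene Wtip differed by 0.56, Tead3 by -0.35 and Vgll3 by 2.29. Among target genes the difference was 2.11 for Gadd45a, 0.64 for Arhgef17, -2.22 for Fjx1, -1.19 for F3, 1.10 for Crim1 and 0.94 for Ccdc80, which was 1.61 with sample groups 1 and 4 only and 0.10, no longer past the threshold, with 3 and 6 only. Among receptors it was -0.29 for Itga5 and -2.39 for Itga6.

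Small differences passed only narrowly. The call was lost on leaving out any 1 of 9 samples for Map4k4 (A022, A035, A036, A037, A040, A051, A053, A042, A055), at 0.25 to 0.29. It was lost for Stk4 without any 1 of 7 (A033, A034, A026, A039, A051, A042, A055), at 0.36 to 0.40. For Tead3 it was lost without any 1 of 10 (A022, A023, A034, A036, A038, A041, A052, A053, A043, A056), at -0.34 to -0.30, and for Itga5 without any 1 of 3 (A036, A038, A043), at -0.27 to -0.25. With sample groups 1 and 4 only (fewer samples), Map4k4, Stk4, Fat4, Stk3, Wwc1, Tead3, Arhgef17, Crim1 and Itga5 no longer passed. With 3 and 6 only, Map4k4, Stk4, Stk3, Wwc1, Wtip, Tead3, Crim1, Ccdc80 and Itga5 did not. Tead3 and Itga5 also failed under RLE scaling, and Tead3 under DESeq2.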

How the results depend on the processing

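Of 62 counts of called genes over the alternatives, leaving out replicates aside, 59 were within 1.5 times the main count. The count in NRK-49F cells went from 4270 to 2702 with sample groups 3 and 6 alone (fewer samples) and to 2661 at an adjusted p under 0.01. The count of differences between the lines went from 6120 to 3248 with sample groups 1 and 4 alone. Leaving out each replicate gave 8568 to 9079 called genes in NRK-52E cells, 3660 to 4245 in NRK-49F cells and 5672 to 6222 differences. It gave 32 to 37 pathway genes in NRK-52E cells and 22 to 26 in NRK-49F cells. Calls of the 10 genes are not given, since these were chosen on their levels. Of 257 log2 fold changes of the 10 genes under other settings, 13 moved by over 1 SD between samples, 12 of them on splitting the sample groups. Of 782 values of other named pathway genes 75 lost the call, 21 gained it and 4 moved, without a called value changing sign. 7 of 40 mean levels moved by over 1 SD with the raw library size. With a pseudocount of 0.1 FPM, 1 of 4 sets of similar genes changed. A minimum of 10 counts in every sample left no value for Ankrd1, Axl, Ccn3, Fat4, Fjx1, Itgb3 and Wwc1. NRK-52E cells alone left none for Axl, Ccn3 and Itgb3, DESeq2 gave no adjusted p for Axl, and the difference has none with lines fitted alone. No paired analysis was possible because replicate codes are not shared between conditions. Depth limits Ankrd1 in NRK-49F cells at pH 6.0, with 1 to 9 counts a sample.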
